A study of Homo sapiens with 6 samples.

Results

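The transcription factors that specify and mature the epidermis were examined in Ker-CT, an established line of human keratinocytes that telomerase and CDK4 keep dividing. They are 9 genes, TP63, GRHL1, GRHL2, GRHL3, KLF4, KLF5, TFAP2A, TFAP2C and OVOL1, taken by name from the 58302 gene entries of the deposited table. In 3 libraries the cells had received siRNA against KMT2C (siKMT2C), and in 3 they had received control siRNA (siNC). All 6 libraries came from cells kept for 24 h with the M5 cytokines (oncostatin M, TNF-α, IL-17A, IL-1α and IL-22, with 10 ng/ml of each), an in vitro stand-in for psoriatic skin, so no library shows the cells without cytokines. KMT2C is a histone H3 lysine 4 methyltransferase that acts at enhancers, and the series title asks what its depletion does to expression in psoriasis-like keratinocytes. The cells are 1 immortalised line grown without dermis or leukocytes. The labels do not say whether replicates were separate cultures, so p-values measure the spread between these libraries, which may be technical.

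p63, the product of TP63, keeps epidermal progenitors in the keratinocyte fate and is required for stratified epithelium to form. The AP-2 factors TFAP2A and TFAP2C act with it early in that fate. The grainyhead-like factors GRHL1, GRHL2 and GRHL3 control junctional and barrier genes, and GRHL3 is needed for the skin barrier in mice. KLF4 drives late differentiation and barrier acquisition, whereas KLF5 is most active in proliferating epithelial cells. OVOL1, a zinc finger repressor, helps progenitors leave the cell cycle as they differentiate.

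All 9 factors had a lower mean in siKMT2C than in siNC, and none passed the edgeR quasi-likelihood test after Benjamini-Hochberg adjustment over all genes. The smallest p-values were those of GRHL3, estimated at 28.9% of the siNC level, KLF4, at 51.6%, and TP63, at 62.2%. Of the 8 factors that could be tested 0 were called, against 1.50% of all genes in either direction and 0.810% lower in siKMT2C. TP63, GRHL2, GRHL3 and KLF4 were lower in every siKMT2C library than in any siNC library, 4 of 9 factors against 12.3% of all genes tested. KLF5 and TFAP2A, both abundant, were estimated at 91.5% and 97.4% of the siNC level, and TFAP2C and OVOL1 had few counts. In these bulk libraries fewer cells that make a factor and less of its RNA per cell cannot be told apart.

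Total counts were 15921870 to 16414777 in the siKMT2C libraries and 14409277 to 17539519 in the siNC libraries. KMT2C itself was at 32.0, 30.8 and 27.3 CPM (read counts scaled to library size with trimmed-mean factors) in siKMT2C and at 87.9, 82.0 and 72.6 CPM in siNC. The siKMT2C libraries all lay below the siNC libraries, at 37.1% of the control level (edgeR adjusted p = 0.00786, n = 3 per group). That call was lost without siKMT2C replicate 1 (edgeR adjusted p = 0.0634), siKMT2C replicate 2 (0.0507) or siNC replicate 2 (0.0593), and its adjusted p reached from 9.3e-14 to 0.0634 over 15 alternative settings. The 10 keratinocyte markers were all tested, with none called, and summed to 18290 to 24994 CPM in siKMT2C and 18466 to 27639 CPM in siNC. The leukocyte markers PTPRC, CD3E and CD1A, the endothelial markers PECAM1 and CDH5 and the melanocyte markers TYR, DCT and SOX10 had no count in any library. Other markers of these lists had counts, and no leukocyte or melanocyte marker was called. The 6 leukocyte markers summed to 13.0 to 14.5 CPM in siKMT2C and 9.67 to 14.5 CPM in siNC, most of it from the macrophage lysosomal gene CD68 (12.7 to 14.4 CPM in siKMT2C and 8.64 to 13.5 CPM in siNC). CD14, a monocyte receptor, had 3, 5 and 2 counts in siKMT2C and 17, 14 and 19 counts in siNC, without overlap (log2 fold change -2.23, SE 0.43, edgeR adjusted p = 0.0534). The 6 melanocyte markers summed to 6.67 to 8.35 CPM in siKMT2C and 6.99 to 15.1 CPM in siNC, MITF among them with 3.91, 6.10 and 5.28 CPM in siKMT2C and 12.4, 4.78 and 9.74 CPM in siNC (log2 fold change -0.82, SE 0.35, edgeR adjusted p = 0.289). PMEL and MLANA, at 0.507 to 1.89 CPM, overlapped between groups. The 4 simple epithelium markers summed to 1379 to 1807 CPM in siKMT2C and 1508 to 1771 CPM in siNC, with none called. KRT18 among them was higher in siKMT2C without overlap (log2 fold change 0.45, SE 0.17, edgeR adjusted p = 0.242). KRT7 (-0.10) and KRT8 (-0.19) overlapped between groups. The 7 fibroblast markers, 4 of them tested and none called, summed to 13.5 to 17.5 CPM in siKMT2C and 20.7 to 31.1 CPM in siNC. DCN (log2 fold change -1.57, edgeR adjusted p = 0.0589) and COL1A1 (-0.77, edgeR adjusted p = 0.103) were lower without overlap, as were 12.3% of all genes tested. COL1A2 (-0.33) and COL3A1 (0.78) overlapped between groups. Of the other endothelial markers KDR, which encodes a receptor for VEGF, was lower in siKMT2C (log2 fold change -1.59, edgeR adjusted p = 0.0135), and the 5 endothelial markers summed to 2.95 to 3.73 CPM in siKMT2C and 8.98 to 10.6 CPM in siNC. The part of these markers in the results below was not tested.

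TP63 (ENSG00000073282, chromosome 3, 189631416 to 189897279 on the plus strand, GRCh38) was at 140.5, 126.0 and 80.7 CPM in siKMT2C, against 174.0, 187.6 and 196.9 CPM in siNC. The groups did not overlap, and siKMT2C replicate 3 stood below the other two siKMT2C libraries. The log2 fold change was -0.69 (SE 0.20, 95% interval -1.16 to -0.22), or 62.2% of the siNC level (95% interval 44.9% to 86.1%). The edgeR adjusted p was 0.144. Without siKMT2C replicate 3 the log2 fold change was -0.48. The gene has 2 groups of starts, whose products with and without the transactivation domain differ in function, and these gene-level counts do not separate them. Keratinocytes are known to make mainly the shorter ΔN form.

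GRHL3 (ENSG00000158055, chromosome 1, 24319322 to 24364482 on the plus strand, GRCh38) was at 0.550, 0.642 and 1.04 CPM in siKMT2C, against 1.95, 3.60 and 2.31 CPM in siNC. Those levels rest on 9, 10 and 17 counts in siKMT2C and on 34, 52 and 41 counts in siNC. Every siKMT2C library lay below every siNC library, yet the level was low in both groups. The log2 fold change was -1.79 (SE 0.38, 95% interval -2.67 to -0.92), the largest in size among the 8 tested factors, with an edgeR adjusted p of 0.0665. By unadjusted p the gene stood at rank 344 of 15063. GRHL3 overlaps STPG1 on the opposite strand, and strand use in the counting is not given in the sources used here. STPG1 had 344, 326 and 328 counts in siKMT2C and 341, 359 and 286 counts in siNC (log2 fold change 0.04, SE 0.18). No stretch of 50 bases in the GENCODE 29 transcripts of GRHL3 occurs in a transcript of another gene on either strand.

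GRHL2, the most abundant of the grainyhead-like factors, was at 27.2, 23.1 and 24.5 CPM in siKMT2C, against 28.1, 29.7 and 28.9 CPM in siNC. The groups lay close together without overlapping. Its log2 fold change was -0.21 (SE 0.13, 95% interval -0.52 to 0.09, edgeR adjusted p = 0.473). GRHL2 is known to maintain E-cadherin and claudin expression in epithelia. GRHL1, which acts on desmosomal cadherins, was at 3.24, 3.53 and 2.58 CPM in siKMT2C, against 4.75, 4.78 and 3.38 CPM in siNC. The groups of GRHL1 overlapped, siNC replicate 3 lying between the siKMT2C libraries, with a log2 fold change of -0.46 (SE 0.24, edgeR adjusted p = 0.387).

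KLF4 (ENSG00000136826, chromosome 9, 107484852 to 107490482 on the minus strand, GRCh38) was at 20.0, 10.2 and 19.3 CPM in siKMT2C, against 30.0, 28.7 and 37.2 CPM in siNC. The groups did not overlap, and siKMT2C replicate 2 was the lowest of the 6 libraries. The log2 fold change was -0.95 (SE 0.26, 95% interval -1.56 to -0.35), or 51.6% of the siNC level (95% interval 33.9% to 78.6%), with an edgeR adjusted p of 0.123. KLF5 was at 227.0, 242.9 and 195.5 CPM in siKMT2C, against 253.6, 243.0 and 230.5 CPM in siNC. These groups overlapped, and the log2 fold change of KLF5 was -0.13 (SE 0.13, 95% interval -0.42 to 0.16, edgeR adjusted p = 0.667). That interval runs from 74.9% to 112% of the siNC level.

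TFAP2A was at 111.9, 111.7 and 86.2 CPM in siKMT2C, against 86.8, 140.0 and 91.2 CPM in siNC. The groups overlapped through most of their range, siNC replicate 2 being the highest library. The log2 fold change was -0.04 (SE 0.21, 95% interval -0.53 to 0.45, edgeR adjusted p = 0.954), and its sign turned without siNC replicate 2 (0.21), without siKMT2C replicate 3 (0.08) and under 1 further setting. The interval spans 69.4% to 137% of the siNC level, so it does not exclude a moderate difference in either direction. The antisense gene TFAP2A-AS1 overlaps it and had 7, 3 and 8 counts in siKMT2C and 10, 26 and 4 counts in siNC. TFAP2C, its partner in the AP-2 family, had 4, 4 and 5 counts in siKMT2C and 4, 8 and 7 counts in siNC and was too low to be tested. Of all 50-base stretches in its own transcripts TFAP2A shares 13.7% with antisense genes, and OVOL1 25.1%.

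OVOL1 had 2, 3 and 14 counts in siKMT2C, against 12, 4 and 24 counts in siNC. In both groups replicate 3 was the highest library, and the groups overlapped. The log2 fold change of -0.99 (SE 0.78, edgeR adjusted p = 0.583) had a 95% interval from -2.79 to 0.82. The estimate was -2.27 without siKMT2C replicate 3 and -0.33 without siNC replicate 3. As a level, that interval reaches from 14.5% to 176% of siNC.

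**Figure D1:**
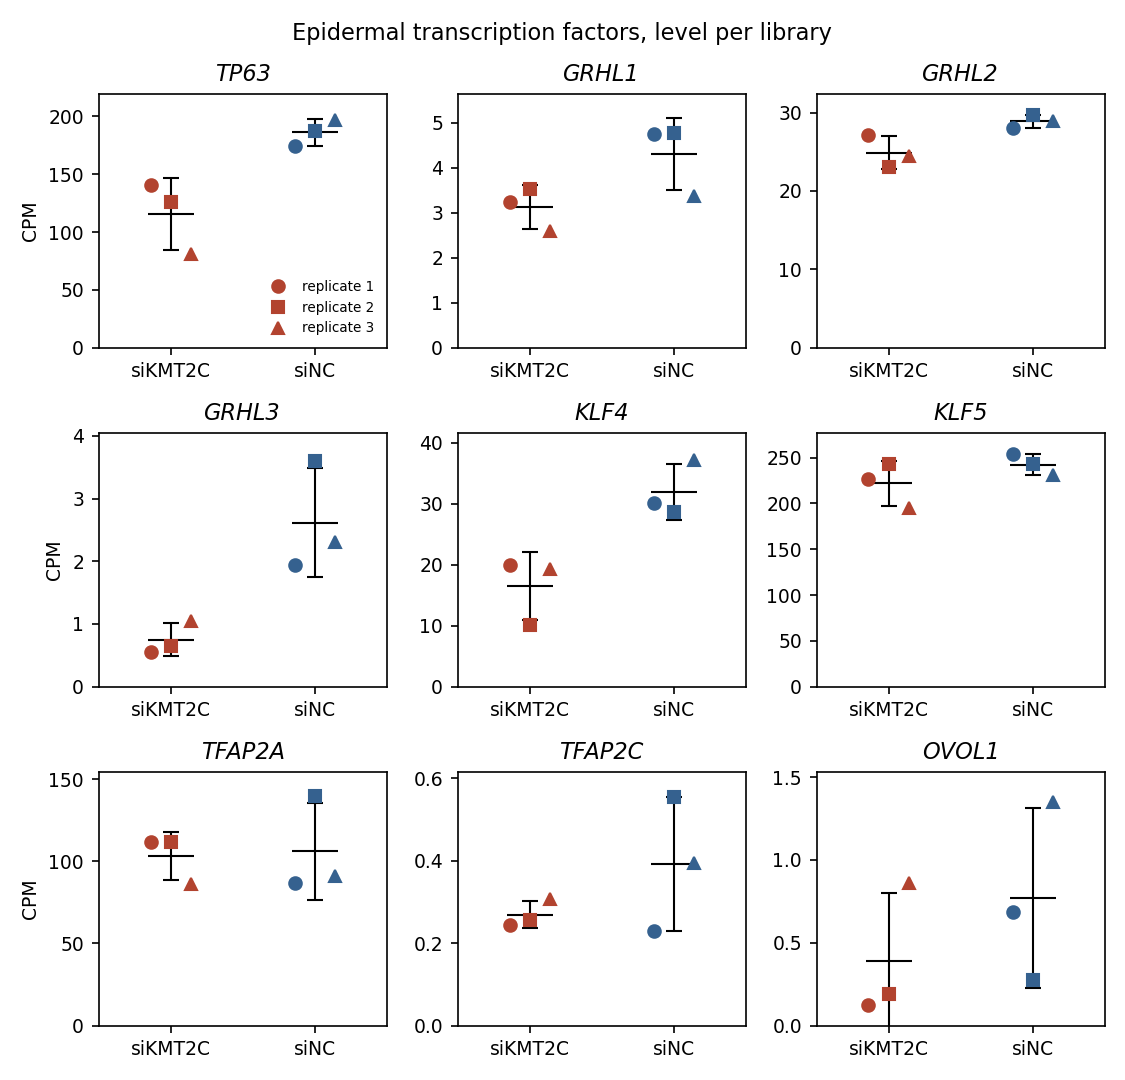
Level of each factor in CPM (linear axes from 0) in the 3 siKMT2C libraries at the left and the 3 siNC libraries at the right of each panel; points are libraries, with a marker shape per replicate number, and bars give the mean and SD, which for OVOL1 in siKMT2C would reach below 0 and is not drawn there. TP63, GRHL2, GRHL3 and KLF4 show no overlap between groups, while the other 5 factors do overlap.

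At an unadjusted edgeR p under 0.05 the count was 3 of 8, namely GRHL3, KLF4 and TP63, against 9.01% of all genes lower at that level. DESeq2 called the same 3 genes, against 3.05% of all genes lower, and limma-voom called 0. The DESeq2 adjusted p was 0.00676 for GRHL3, 0.0165 for KLF4 and 0.048 for TP63. Over 15 alternative settings the adjusted p ran from 0.00676 to 0.264 for GRHL3, from 0.0165 to 0.266 for KLF4 and from 0.048 to 0.333 for TP63. The exact two-sided permutation test gave p = 0.1 for TP63, GRHL2, GRHL3 and KLF4, the smallest value that 3 against 3 libraries allow. The same exact test gave p = 0.2 for GRHL1 and KLF5, 0.3 for OVOL1, 0.4 for TFAP2C and 0.9 for TFAP2A. All 8 tested factors had a negative log2 fold change, with a median of -0.57, against a median of -0.0025 and 50.3% negative over all genes tested.

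**Figure D2:**
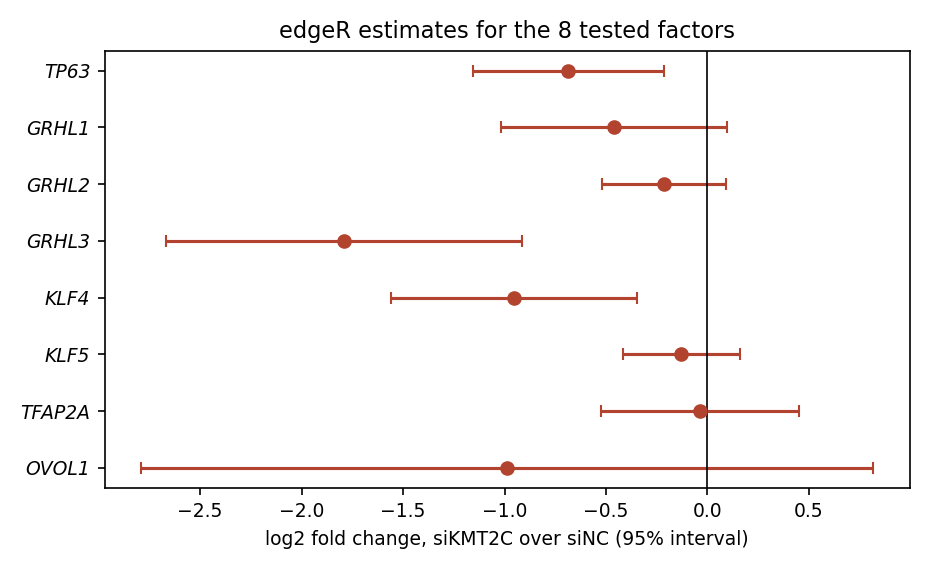
Log2 fold change of siKMT2C over siNC for the 8 tested factors, with 95% intervals from edgeR (points, estimates; bars, intervals; vertical line, no difference). The intervals of TP63, GRHL3 and KLF4 lie below 0 before adjustment over all genes, and that of OVOL1 is the widest, from -2.79 to 0.82.

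The libraries of siKMT2C did not order the factors alike. Replicate 3 held the lowest siKMT2C level of TP63, GRHL1, KLF5 and TFAP2A, and the highest of GRHL3, OVOL1 and TFAP2C. For TFAP2C this rests on 4, 4 and 5 counts. Relative to each gene's mean over 6 libraries on the log2 CPM scale, TP63 was at -0.04, -0.20 and -0.84 in siKMT2C replicates 1 to 3, and GRHL3 was at -1.15, -0.97 and -0.36. KLF4 was at -0.16, -1.13 and -0.21. By these values the 3 factors with the smallest p-values each had another siKMT2C library as their lowest. For GRHL3, replicates 1 and 2 had 9 and 10 counts, too close to tell which was lower.

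Levels of different genes were compared on the deposited FPKM scale (fragments scaled to gene length and to depth), which corrects for gene length. KLF5 was the most abundant factor, at 30.1 ± 3.10 FPKM in siKMT2C and 33.6 ± 1.54 FPKM in siNC (SD, n = 3 each). TP63 followed with 9.20 ± 2.48 FPKM in siKMT2C and 15.1 ± 0.957 FPKM in siNC. TFAP2A had 6.36 ± 0.893 FPKM in siKMT2C and 6.65 ± 1.82 FPKM in siNC. In siKMT2C the ranges of TP63 and TFAP2A overlapped, whereas in siNC every TP63 value lay above every TFAP2A value. Within each siKMT2C library TP63 was still above TFAP2A, at 11.2, 9.90 and 6.44 FPKM against 6.94, 6.80 and 5.33 FPKM.

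GRHL2 had 3.37 ± 0.310 FPKM in siKMT2C and 3.98 ± 0.0992 FPKM in siNC, and KLF4 had 1.83 ± 0.624 FPKM in siKMT2C and 3.61 ± 0.535 FPKM in siNC. These neighbours did not differ beyond their spread in siNC, and in siKMT2C KLF4 lay below GRHL2 in every library. GRHL3 had 0.143 ± 0.0506 FPKM in siKMT2C and 0.509 ± 0.167 FPKM in siNC, and GRHL1 had 0.275 ± 0.0415 FPKM in siKMT2C and 0.387 ± 0.0705 FPKM in siNC. GRHL3 was thus under GRHL1 in siKMT2C, without overlap of the ranges, and at overlapping levels in siNC. TFAP2C (0.0796 FPKM in siKMT2C and 0.118 FPKM in siNC) and OVOL1 (0.0750 FPKM in siKMT2C and 0.151 FPKM in siNC) closed the order with overlapping ranges in both groups.

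**Figure D3:**
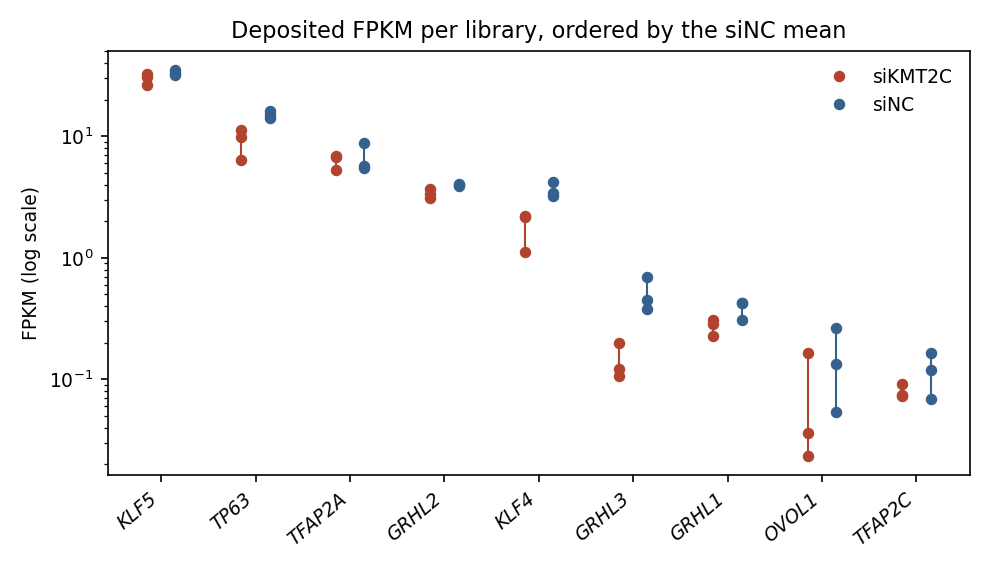
Deposited FPKM of the 9 factors on a log axis, ordered by their siNC mean, with siKMT2C at the left and siNC at the right of each pair; points are libraries and lines join the lowest and highest. KLF5 leads in both groups, and the pairs of GRHL3, KLF4, GRHL2 and TP63 do not overlap.

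Ratios within a library, which do not depend on scaling between libraries, were taken for 5 pairs of relatives. GRHL3 stood at 36.7%, 39.3% and 87.6% of the GRHL1 FPKM level in siKMT2C, against 88.6%, 163% and 148% in siNC. The groups did not overlap, though siKMT2C replicate 3 and siNC replicate 1 nearly met. Relative to GRHL2, GRHL3 stood at 2.86%, 3.94% and 6.02% in siKMT2C, against 9.78%, 17.1% and 11.3% in siNC. Both log2 ratios were lower in siKMT2C, by -1.36 (GRHL3 over GRHL1) and -1.60 (GRHL3 over GRHL2), each with an exact two-sided permutation p of 0.1, the smallest possible, and 0.167 after adjustment over the 5 ratios. GRHL1 over GRHL2 overlapped between groups, with a difference of -0.24 and an exact permutation p of 0.3 (adjusted 0.3).

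KLF4 stood at 7.18%, 3.41% and 8.07% of the KLF5 FPKM level in siKMT2C, against 9.65%, 9.61% and 13.2% in siNC. These groups did not overlap. The log2 ratio was lower by -0.88 in siKMT2C (exact permutation p = 0.1, adjusted 0.167), and by -0.49 without siKMT2C replicate 2. TFAP2C over TFAP2A, from few TFAP2C counts, overlapped (difference -0.44, exact permutation p = 0.2, adjusted 0.25).

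**Figure D4:**
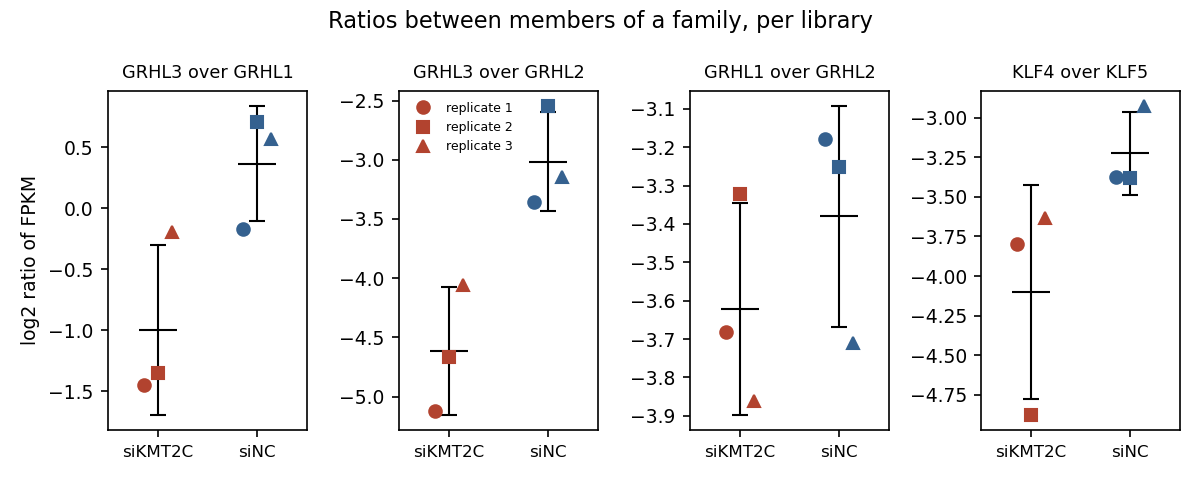
Log2 ratio of deposited FPKM between 2 relatives within each library, for 4 of the 5 pairs, with siKMT2C at the left and siNC at the right; bars give the mean and SD, marker shapes the replicate number, and each panel has its own axis. The groups separate for both GRHL3 ratios and for KLF4 over KLF5, and overlap for GRHL1 over GRHL2.

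Short sequence matches were looked for in the transcripts and promoters of the factors. The 7-mer GTATAAA was picked out in an earlier pass over these same data, from a scan of all 7-mers against the fold changes, so its presence is a description and no independent evidence. Only the longest protein-coding transcript of each gene in GENCODE 29 was searched, for the factors and for all other genes. There the 7-mer occurs once in the 3′ UTR of TP63 (at base 342 of 2777) and once in that of KLF4 (at base 300 of 899). It was in none of the other 7 factors, GRHL3 included, in the transcripts searched. The 2 stretches are shown since these are 2 of the 3 factors with the smallest p-values, with the 7-mer in capitals.
TP63: tatatataaatGTATAAAtatacagtata
KLF4: tggatatcaggGTATAAAttatatccgtg
The 7-mer was carried by 17.2% of the 12222 tested genes whose annotated 3′ UTR reaches 50 bases, and by 28.5% of those at or above their median 3′ UTR length. The median log2 fold change was -0.11 among carriers and 0.01 among the others, with 62.6% and 49.1% of genes negative. The part of the 7-mer in the levels of TP63 and KLF4 was not tested.

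Promoter sequences from RefSeq (GRCh38.p14, 250 bases before to 50 after a start) were matched for 6 of the 9 factors, with 9 starts. They were searched on both strands for letters bound by the factors' own families, namely AACCGGTT (grainyhead), GCCNNNGGC (AP-2), CCACACCC (KLF), CCGTTA (OVOL) and the p53-family half-site with a CATG core, and for TATAAA. AP-2 letters were found at KLF4 and at the downstream of the 2 GRHL3 starts, and occur in 23.2% of the 35116 promoters in the table. Both are printed because KLF4 and GRHL3 had the smallest p-values of the factors, with the AP-2 letters in capitals.
KLF4 promoter, chr9:107489720-107490019, minus strand: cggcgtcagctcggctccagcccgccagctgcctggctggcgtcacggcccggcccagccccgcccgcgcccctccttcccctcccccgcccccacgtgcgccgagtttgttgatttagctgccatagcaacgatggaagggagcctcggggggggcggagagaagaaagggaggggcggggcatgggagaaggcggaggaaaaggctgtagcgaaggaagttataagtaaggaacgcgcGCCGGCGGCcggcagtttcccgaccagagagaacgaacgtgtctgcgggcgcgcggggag
GRHL3 promoter, chr1:24322790-24323089, plus strand: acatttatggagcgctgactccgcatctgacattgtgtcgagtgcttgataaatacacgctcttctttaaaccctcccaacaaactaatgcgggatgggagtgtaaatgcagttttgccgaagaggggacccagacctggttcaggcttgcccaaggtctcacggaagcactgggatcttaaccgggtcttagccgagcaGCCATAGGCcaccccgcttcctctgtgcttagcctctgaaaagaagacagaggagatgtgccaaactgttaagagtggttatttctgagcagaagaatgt
TATAAA was found at 1 start each of TP63, KLF5 and TFAP2A, against 11.5% of all promoters. The letters of grainyhead (0.134% of promoters), KLF (3.28%), OVOL (3.07%) and the p53-family half-site (1.57%) were in none of the 9 windows. The TP63 window is that of the upstream start, not of the downstream start of the ΔN form.

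Relatives of the 9 factors did not share one direction. Of 20 listed relatives 14 were tested, none was called, and the log2 fold changes (7 negative, 7 positive) had a median of -0.08. KLF9, a glucocorticoid-induced factor, was at 22.9, 26.1 and 21.6 CPM in siKMT2C, against 37.6, 35.7 and 30.6 CPM in siNC (log2 fold change -0.56, SE 0.15, edgeR adjusted p = 0.114). TFCP2L1, which shares the CP2 fold with the grainyhead-like factors, had a log2 fold change of 0.52 (SE 0.18) and KLF6 one of 0.88 (SE 0.32), with edgeR adjusted p of 0.198 and 0.214. KLF6 was at 199.4, 195.3 and 80.8 CPM in siKMT2C, against 73.1, 90.1 and 94.5 CPM in siNC, so siKMT2C replicate 3 lay with the siNC libraries.

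Of 26 other keratinocyte transcription factors 19 were tested and 1 was called, against 1.50% of all genes tested. MAF, which acts in late differentiation, fell to 1.35, 2.38 and 1.29 CPM in siKMT2C, against 11.8, 11.8 and 13.5 CPM in siNC (log2 fold change -2.88, SE 0.27, edgeR adjusted p = 0.00591). The list had 10 negative and 9 positive values and a median of -0.01.

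Genes known to depend on the factors were counted from lists of known dependents. Over these lists and those of other factors, without KMT2C and the cell type markers, 5 genes were called, with the number tested given list by list. The count was 1 to 13 with 1 library left out, highest without siNC replicate 3. Of all genes tested 1.50% were called, and the count over all genes was 16 to 620 with 1 library left out. The lists were chosen with earlier results of these data known, so their calls are a description and no independent evidence. Of the 26 p63-dependent basal and adhesion genes 23 were tested, 14 of them negative, against 50.3% of all genes tested, with a median of -0.12. PTHLH, which encodes a parathyroid hormone-related peptide, rose to 35.6 ± 4.92 CPM in siKMT2C, against 13.4 ± 0.491 CPM in siNC (log2 fold change 1.41, edgeR adjusted p = 0.0108). SATB1, a chromatin organiser of the epidermal locus, fell to 17.5 ± 2.32 CPM in siKMT2C, against 34.9 ± 2.71 CPM in siNC (-0.998, edgeR adjusted p = 0.0313). Among the 10 keratinocyte markers the smallest p-values were those of the basal integrin ITGA6 (log2 fold change -0.51, edgeR adjusted p = 0.0665), the hemidesmosomal collagen COL17A1 (0.72, 0.0702) and the desmosomal plakin DSP (-0.37, 0.144).

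Of the 20 grainyhead-dependent barrier and junction genes 17 were tested, 12 negative and 5 positive, with a median of -0.14. Over all genes tested 50.3% were negative. CLDN1, a claudin of the epidermal tight junction, was the only call, and fell to 6.63 ± 1.16 CPM in siKMT2C, against 14.96 ± 2.11 CPM in siNC (-1.17, SE 0.20, edgeR adjusted p = 0.0366). Summed over the list, siKMT2C libraries held 1530 to 1748 CPM and siNC libraries 1940 to 2101 CPM, a total set by its most abundant genes. Of the 22 suprabasal differentiation genes, on which KLF4 and GRHL3 are known to act, 8 were tested. Of these 6 were negative, against 50.3% of all genes tested, with a median of -0.32. ABCA12, the lipid transporter of lamellar granules, fell to 10.2 ± 1.38 CPM in siKMT2C, against 28.9 ± 4.53 CPM in siNC (-1.51, SE 0.19, edgeR adjusted p = 0.0135). KRT1, LORICRIN and KLK7 of that list had no count in any library, and the 14 that were not tested had too few counts.

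Epithelial-mesenchymal transition is a process that OVOL and grainyhead-like proteins are known to repress. The listed factors and markers of that transition had 5 negative and 4 positive values among 9 tested, a median of -0.02 and no call. Their smallest p-values were those of TGFB2 (log2 fold change -1.02, SE 0.29), VIM (0.47, SE 0.18) and ZEB1 (0.62, SE 0.32), with edgeR adjusted p of 0.136, 0.247 and 0.386. ZEB1 was at 9.11, 8.74 and 6.27 CPM in siKMT2C and at 6.12, 6.71 and 2.93 CPM in siNC, with overlap. Of 18 listed chromatin partners of KMT2C all were tested, and KMT2C itself was the only call.

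The genes whose 6 library values most resembled TP63 were sought by the root mean square difference between log2 CPM profiles centred per gene. The search covered 11483 tested protein-coding genes with a symbol and a mean log2 CPM of at least 1, so genes of lower level were left out. They were PRKCE (0.0702), KCND1 (0.125) and CDK20 (0.142), in log2 units. PRKCE, a protein kinase C, was at 6.48, 5.14 and 3.44 CPM in siKMT2C and at 8.12, 7.82 and 8.39 CPM in siNC. Its siKMT2C libraries had the order of those of TP63, which choosing a gene by likeness favours. For GRHL3 the nearest were VIPR1 (0.254), LOXL2 (0.295) and CAVIN2 (0.299). VIPR1, a receptor for vasoactive intestinal peptide, was at 1.22, 1.09 and 1.97 CPM in siKMT2C and at 4.005, 4.78 and 5.35 CPM in siNC.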

How the data were processed

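RNA-seq of 3 siKMT2C and 3 siNC libraries was analysed from 1 table. The authors deposited whole-number read counts per gene and FPKM values, per the file headers. CASAVA 1.8 and TopHat2 2.0.6 were used, per the submitters' processing notes. The notes name a mouse build although the identifiers are human, and the counting program, strand setting and human build are not given in the sources used here. In the authors' table FPKM was the counts rescaled per gene and library: over 13748 genes the implied length deviated by at most 6.3e-05 between libraries. GENCODE 29 (GRCh38) held 58039 of 58302 identifiers, and its coordinates are not those of the authors' build.

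Counts were filtered with filterByExpr, scaled by trimmed mean of M-values and tested with edgeR 4.0.16 (robust quasi-likelihood F test, R 4.3.3), which left 15063 genes; a call is an adjusted p under 0.05. The step was tested on simulated data. Alternatives used limma 3.58.1, DESeq2 1.42.0, other scalings and filters, a replicate block, a loess correction for GC content and length (span 0.3), and each library left out. The members and lists were chosen with earlier results of these data known. Named genes are all members, the called genes of each list or, with no call, the 3 smallest p-values, and the 3 genes nearest to TP63 and to GRHL3. Log2 CPM used a prior count of 2. Protein sequences were not used here. Other steps used pandas 2.3.3, scipy 1.17.1, numpy 2.4.6 and, for plots, matplotlib 3.10.9, all under Python 3.11.15.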

Additional observations from a re-analysis of the deposited data

How the results depend on the processing

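The count of genes called was 226 of 15063 in edgeR and 310 of 29808 with no filter. Of the same 15063 genes, 864 were called with DESeq2, 968 with the replicate block, 1363 with the GC and length correction and 1373 with both. Each of these settings on 15063 genes thus called more of all genes than the main test. With 1 library left out the count was 16 (without siNC replicate 2) to 620 (without siNC replicate 3). With the GC and length correction 771 genes were higher and 592 lower, against 104 and 122. Of the 9 factors 0 were called in the main test and with any library left out, 1 with no filter (GRHL3), 3 with DESeq2, and 2 (GRHL3 and KLF4) with the block, with the correction and with both. GRHL3 then had log2 fold changes of -1.79 (no filter), -1.80 (DESeq2), -1.78 (block), -1.80 (correction) and -1.78 (both). KLF4 had -0.95 (DESeq2), -1.0 (block), -0.94 (correction) and -0.98 (both), and TP63 -0.68 (DESeq2). TFAP2A was at 0.0075 with block and correction together, and at -0.16 to 0.21 with 1 library left out. In the lists of other factors and dependent genes 5 were called, and 8 with no filter, 19 with DESeq2, 21 with the block, 21 with the correction, 21 with both, and 1 to 13 with 1 library left out. The cause of these shifts was not tested. The order of the factors by FPKM was the same on TMM-scaled CPM per length. That length was derived from the same deposited counts and FPKM, so the order could hardly differ and was not checked independently. Leaving out libraries for the ratios was chosen after seeing the data. Same-numbered libraries had correlated deviations of 0.0195, 0.107 and 0.389, and siKMT2C replicates 1 and 2 correlated best with another number, so the replicate block was not treated as a pairing. Depth limits TFAP2C, OVOL1 and GRHL3, at 32, 59 and 163 counts over the 6 libraries.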
